A study of Homo sapiens with 2 samples.

Results

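The genes of the histone methyltransferases, histone demethylases, histone deacetylases, non-SWI/SNF chromatin remodelers and DNA methylation enzymes were examined for differences in SMARCA4 binding between parental and EZH2 inhibitor-resistant (EIR) cells. The 59 genes were taken by name as members of these enzyme families. For each gene, the differential SMARCA4 regions whose nearest edge lay within 1 kb of the transcription start site (TSS) of any annotated transcript were taken first, followed by those elsewhere in the gene body. In all, 31 of the 59 genes had such a region and 28 had none. Shares over all coding genes are given below for TSSs and for gene bodies, and not for both together. The 59 genes also have longer spans and more annotated starts than coding genes in general. These 31 genes held 53 of the 12896 regions of both lists. Of the 53, 36 lay within 1 kb of a TSS and 17 elsewhere in a gene body. At the TSSs, 35 regions at 28 genes had more SMARCA4 tags in parental cells, and 1 region, at *DNMT1*, had more in EIR cells.

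SMARCA4 (BRG1) is an ATPase of the SWI/SNF complex, which uses ATP to move or evict nucleosomes and so changes the access of other proteins to DNA. The enzymes encoded by the 59 genes act on the same chromatin. Methyltransferases such as KMT2A to KMT2D and the SETD1 proteins write methyl marks on histone H3, and demethylases of the KDM families remove them. Deacetylases take acetyl groups off histone tails, and CHD, ISWI and INO80 family ATPases slide, space or exchange nucleosomes. DNMT proteins methylate cytosine in CpG dinucleotides, and TET proteins oxidise this mark. Many of these genes start in CpG islands, stretches of DNA in which CpG has been retained and which are mostly free of methylation in normal cells.

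The data came from 2 ChIP-seq libraries without replicates. One was made from parental TOV21G, an ovarian clear cell carcinoma line with mutated *ARID1A*, a gene for another SWI/SNF subunit. The other came from clone 3, a single GSK126-resistant clone of that line. GSK126 inhibits EZH2, the methyltransferase that silences genes through H3K27, and the resistant clones were picked after the dose had been stepped up from 5 μM through 10 and 15 μM to 20 μM. In both, the endogenous *SMARCA4* gene carried a FLAG epitope, cells with the tag were grown from single colonies, and chromatin was precipitated with anti-FLAG. Library totals were 25.6 M tags (aligned reads) for parental and 35 M for EIR cells. EIR tags are given below on the parental scale, on which 1 EIR tag counts 0.733. Each list holds only regions called as different between the libraries, 10792 higher in parental cells and 2104 higher in EIR cells. A gene without a region is therefore not a gene without SMARCA4. Folds are the higher over the lower library, their 95% intervals cover counting error only, and no value below has a replicate check. Fewer cells with SMARCA4 at a site and less SMARCA4 per cell cannot be told apart in such data.

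The sequences under 3 TSS regions and 1 gene body region at which the differences were most marked are shown first, because the regions differ in CpG content. A further TSS region, that of *DNMT1*, is shown because it alone had more SMARCA4 in EIR cells. *CHD3* and *SETD1B* were added after their values were seen. All are GRCh37 reference sequence outside annotated exons, written 5′ to 3′ on the strand of the gene, with each CpG in capitals.
HDAC4, chr2:240321771-240322070, minus strand, 644 to 943 bp after the canonical TSS, parental higher: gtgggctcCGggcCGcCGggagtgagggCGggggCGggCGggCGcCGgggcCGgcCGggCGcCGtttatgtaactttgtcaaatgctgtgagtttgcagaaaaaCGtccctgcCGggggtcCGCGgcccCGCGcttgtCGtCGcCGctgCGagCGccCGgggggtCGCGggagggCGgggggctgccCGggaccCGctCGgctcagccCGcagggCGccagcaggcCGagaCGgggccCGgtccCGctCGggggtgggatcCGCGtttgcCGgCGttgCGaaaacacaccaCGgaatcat
DNMT3A, chr2:25564383-25564682, minus strand, 112 to 411 bp after the canonical TSS, parental higher: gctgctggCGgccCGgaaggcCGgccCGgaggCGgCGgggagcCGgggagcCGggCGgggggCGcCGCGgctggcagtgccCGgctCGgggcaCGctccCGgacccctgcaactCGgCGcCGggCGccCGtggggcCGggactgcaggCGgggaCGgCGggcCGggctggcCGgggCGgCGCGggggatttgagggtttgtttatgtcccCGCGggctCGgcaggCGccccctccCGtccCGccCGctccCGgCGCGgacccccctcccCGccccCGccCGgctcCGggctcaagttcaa
CHD3, chr17:7788557-7788856, plus strand, 3550 to 3251 bp before the canonical TSS, parental higher: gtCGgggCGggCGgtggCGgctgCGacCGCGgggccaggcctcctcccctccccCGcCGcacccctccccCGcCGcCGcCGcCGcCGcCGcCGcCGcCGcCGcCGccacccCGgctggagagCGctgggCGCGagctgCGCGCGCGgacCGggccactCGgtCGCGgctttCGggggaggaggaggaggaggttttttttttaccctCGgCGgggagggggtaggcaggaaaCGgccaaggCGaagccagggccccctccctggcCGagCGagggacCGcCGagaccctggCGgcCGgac
DNMT1, chr19:10305303-10305495, minus strand, 134 to 326 bp after the canonical TSS, EIR higher: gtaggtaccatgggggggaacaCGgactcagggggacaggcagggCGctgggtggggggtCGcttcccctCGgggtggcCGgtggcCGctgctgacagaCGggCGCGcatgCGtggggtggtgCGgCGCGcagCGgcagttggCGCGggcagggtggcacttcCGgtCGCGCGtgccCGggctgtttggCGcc
SETD1B, chr12:122248742-122248989, plus strand, intron 6, EIR higher: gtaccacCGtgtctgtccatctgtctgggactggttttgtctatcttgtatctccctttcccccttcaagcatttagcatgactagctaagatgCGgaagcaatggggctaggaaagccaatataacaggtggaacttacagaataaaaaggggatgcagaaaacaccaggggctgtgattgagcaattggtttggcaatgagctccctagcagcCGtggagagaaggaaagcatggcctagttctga
The stretches of *HDAC4*, *DNMT3A* and *CHD3* had 43, 44 and 44 CpGs in 300 bases, with observed over expected CpG ratios of 1.05, 0.87 and 0.93. The shorter *DNMT1* stretch had 22 CpGs in 193 bases, a ratio of 0.88. The *SETD1B* intron had 3 in 248 bases, a ratio of 0.21. The whole *SETD1B* region, which includes exon sequence, had 23 CpGs and a ratio of 0.39. GC boxes (GGGCGG on either strand), the binding motif of SP1-type factors, occurred 4 times in the *HDAC4* stretch, 5 times in that of *DNMT3A*, 2 times in that of *CHD3* and 0 times in those of *DNMT1* and *SETD1B*. The central 300 bases of the whole *DNMT1* region, which run beyond the stretch shown, did hold a GC box.

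Parental-higher SMARCA4 regions lay within 1 kb of a TSS at 28 of the 59 genes (47.5%). Over all 20163 protein-coding genes the share was 23.2%. The enzyme genes have more annotated starts, a median of 15 against 5, so the count was repeated with the canonical TSS alone, which gave 24 genes (40.7%) against 20.2% of coding genes. EIR-higher regions lay at the TSS of 1 gene (1.69%) against 1.96% of coding genes, and at a canonical TSS of that same gene (1.69%) against 1.13%. By region, 2.78% of the TSS regions of these genes were EIR-higher, and 7.42% of those of all coding genes. The size of the parental excess was close to that elsewhere. The 35 regions had a median fold of 2.62 (quartiles 2.19 and 3.58), compared with 2.54 (2.15 and 3.07) over the 4668 parental-higher regions at coding TSSs. Median parental tags were 48 in each set. Regions with at least a 5-fold difference made up 5 of the 35 (14.3%) and 164 of the 4668 (3.51%). These folds are descriptions, since a region entered a list because the 2 libraries differed there.

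**Figure D1:**
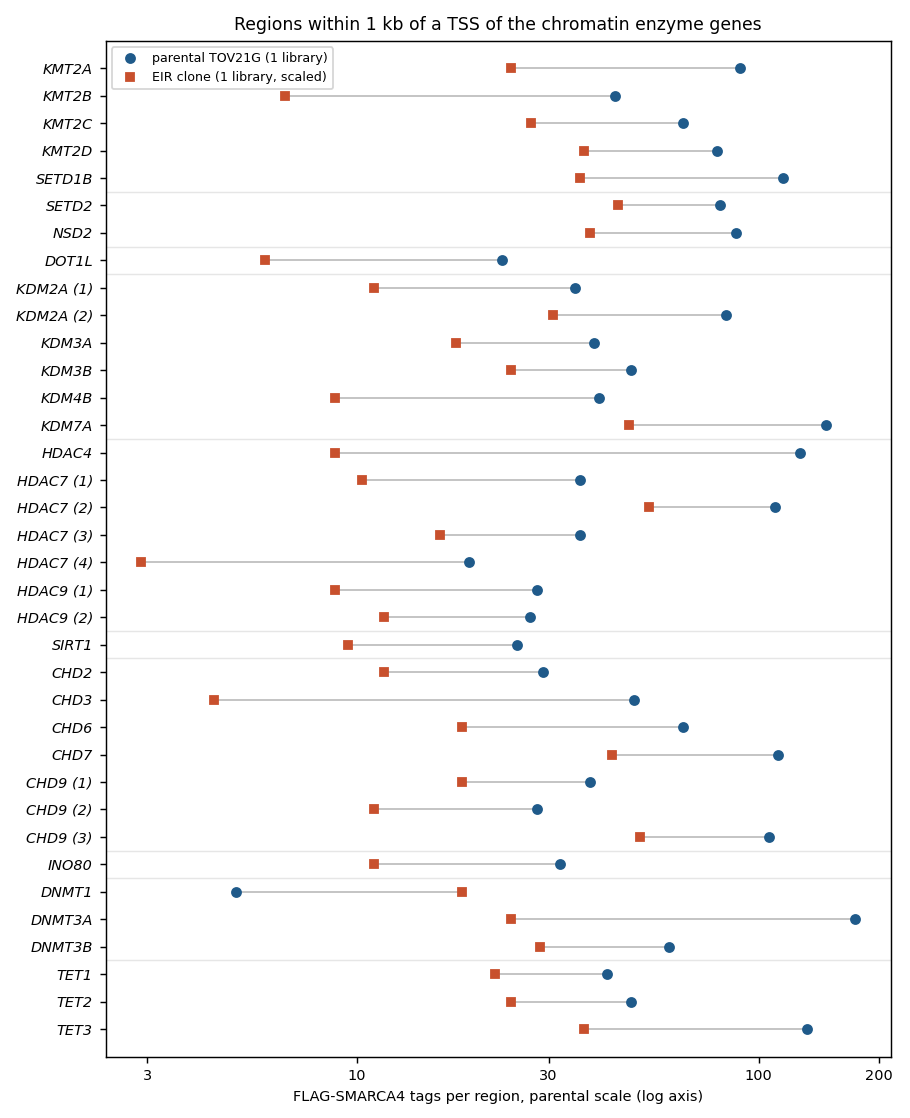
FLAG-SMARCA4 tags in each of the 36 regions within 1 kb of a TSS (log axis, parental scale), with circles for the parental library and squares for the EIR library; genes are ordered by role, with lines between roles, and numbers in parentheses separate regions of 1 gene. The parental circle lies to the right in 35 regions, with the widest gap at HDAC4, and to the left only at DNMT1.

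By role, parental-higher regions were found at the TSSs of 5 of 8 H3K4 methyltransferase genes, 2 of 4 H3K36 methyltransferase genes, the single H3K79 methyltransferase gene, 5 of 10 JmjC demethylase genes, 3 of 5 class II deacetylase genes, the single class III deacetylase gene, 5 of 8 CHD remodeler genes, 1 of 3 INO80 family genes, 2 of 3 DNA methyltransferase genes and 3 of 3 TET genes. No listed region of either direction was found at any of the 5 H3K9 methyltransferases, the 2 amine oxidase demethylases, the 4 class I deacetylases or the 2 ISWI remodelers. With 1 to 10 genes per role, these shares were not tested against each other.

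**Figure D2:**
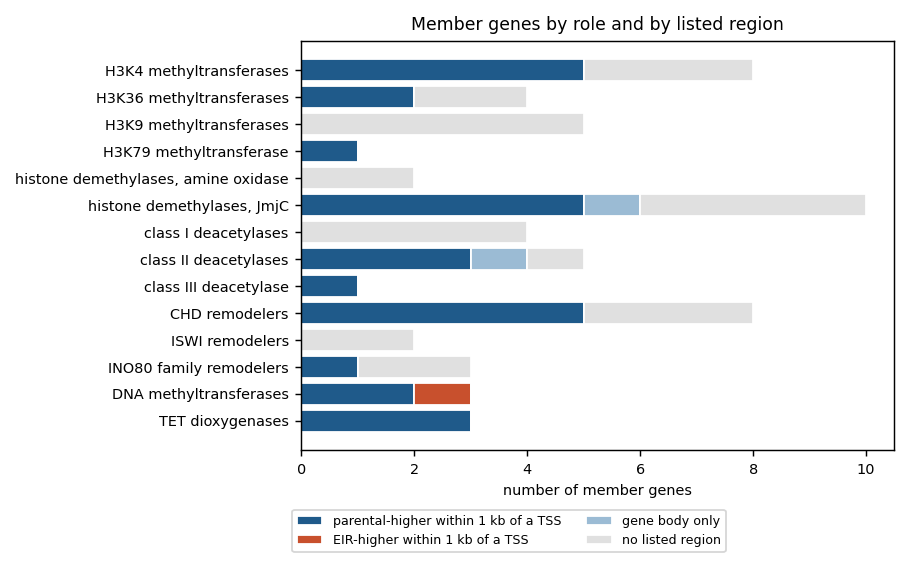
Number of the 59 genes in each role with a parental-higher region within 1 kb of a TSS, an EIR-higher region within 1 kb of a TSS, a region in the gene body only, or no listed region. H3K9 methyltransferases, amine oxidase demethylases, class I deacetylases and ISWI remodelers have none, whereas all 3 TET genes have a parental-higher region.

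KMT2A to KMT2D and the SETD1 enzymes, catalytic subunits of COMPASS-type complexes, methylate H3K4 at promoters and enhancers. At *KMT2B*, the region chr19:36208688-36209344 covered the canonical TSS, exon 1 and the start of intron 1, with 44 tags in parental and 6.6 in EIR cells (6.67-fold, 95% interval 3.21 to 15.5). At *KMT2A*, also known as MLL, 90 tags stood against 24.2 over chr11:118306819-118307919, from 388 bp before to 712 bp after the canonical TSS (3.72-fold, 2.47 to 5.73). Both regions thus lay on the main promoter. *SETD1B* had 115 tags in parental and 35.9 in EIR cells at chr12:122241430-122242802 (3.20-fold, 2.27 to 4.57), in a promoter region that is also within 1 kb of a TSS of *RHOF*. *KMT2C* and *KMT2D*, which encode the enzymes for H3K4 monomethylation at enhancers, had smaller folds. Over the *KMT2C* start at chr7:152132489-152133935, parental cells had 65 tags and EIR cells 27.1 (2.40-fold, 1.58 to 3.69). In the first exon of *KMT2D*, chr12:49453611-49454407, they had 79 and 36.7 (2.16-fold, 1.49 to 3.14). The intervals of *KMT2B* and *KMT2D*, the highest and lowest folds of the group, did not overlap, and the folds were not tested against each other. *KMT2E*, *SETD1A* and *SETD7* had no region within 1 kb of a TSS or in the gene body. *KMT2E* was placed in this group by its name.

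Among writers of the other H3 marks, the largest difference was at *DOT1L*, the H3K79 methyltransferase, with 23 parental and 5.9 EIR tags over chr19:2163731-2164379 (3.92-fold, 1.69 to 10.1). This region covered the canonical TSS and also lay within 1 kb of a TSS of *AP3D1*. *SETD2* encodes the enzyme that trimethylates H3K36 in transcribed genes. Its region in exon 1 and intron 1, chr3:47204570-47205390, held 80 and 44.7 tags (1.79-fold, 1.27 to 2.54), the smallest fold of the 35. *NSD2*, an H3K36 dimethyltransferase, had 88 and 38.1 tags at chr4:1873248-1874340, 60 bp from a TSS (2.31-fold, 1.62 to 3.32). *NSD1*, *NSD3* and the H3K9 methyltransferase genes *SETDB1*, *SUV39H1*, *SUV39H2*, *EHMT1* and *EHMT2*, whose products form heterochromatin or silence euchromatic genes, had none.

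JmjC demethylases use iron and 2-oxoglutarate to remove histone methyl groups. *KDM4B*, an H3K9 and H3K36 demethylase gene, had the largest fold, 40 tags against 8.8 over its canonical TSS at chr19:4969025-4969525 (4.55-fold, 2.34 to 9.52). *KDM7A*, which encodes an H3K9 and H3K27 demethylase, had the most tags, with 147 in parental and 47.6 in EIR cells over chr7:139875722-139877456 (3.09-fold, 2.29 to 4.20). *KDM2A*, whose product recognises unmethylated CpG through a zinc finger, had 2 regions. Its TSS-covering region chr11:66886801-66887779 had 83 and 30.8 tags (2.70-fold, 1.84 to 4.01), and a region 963 bp upstream had 35 and 11.0 (3.18-fold, 1.69 to 6.27). Their intervals overlapped. The H3K9 demethylase genes *KDM3A* and *KDM3B* showed the smallest differences of this family. At chr2:86668335-86668969 *KDM3A* had 39 and 17.6 tags (2.22-fold, 1.30 to 3.85). At chr5:137688275-137688775 *KDM3B* had 48 and 24.2 (1.98-fold, 1.25 to 3.19). *KDM4C* had a region in intron 1 only (20 and 6.6 tags, 3.03-fold), and *KDM4A* and the H3K4 demethylase genes *KDM5A*, *KDM5B* and *KDM5C* had none. Nor did *KDM1A* (LSD1) or *KDM1B*, the amine oxidase demethylase genes.

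The largest difference in this direction was at *HDAC4*. Class IIa deacetylases, HDAC4, HDAC5, HDAC7 and HDAC9, shuttle between nucleus and cytoplasm and repress MEF2-dependent genes. Over chr2:240321630-240322944, which runs from 230 bp before the canonical *HDAC4* TSS to 1084 bp after it through exon 1 into intron 1, 127 tags were counted in parental and 8.8 in EIR cells, the latter from 12 reads. The fold was 14.44 (7.98 to 28.7). Of the 10792 parental-higher regions this one had the smallest HOMER *P* value (4.56e-98), and it ranked 23 by fold and 293 by tags. In the plot of fold against parental tags, every region at a coding TSS with a higher fold had fewer parental tags.

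**Figure D3:**
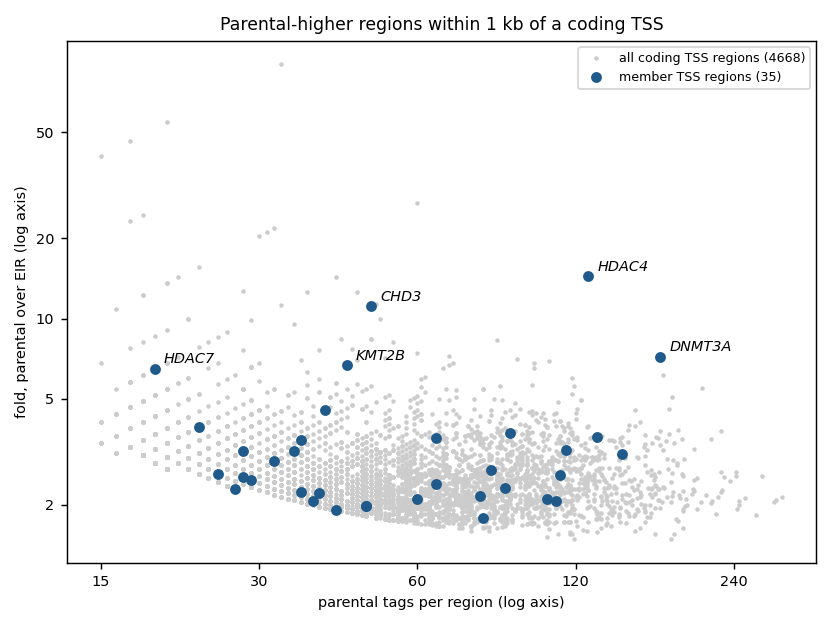
Fold of parental over EIR tags against parental tags per region, both on log axes, for the 35 parental-higher TSS regions of the enzyme genes (large points) and all 4668 at coding TSSs (small points). HDAC4 with 127 tags and DNMT3A with 174 tags stand above the other regions of similar tag number, and the sloping lower edge of the cloud follows the threshold at which regions were called.

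*HDAC7* had the most regions of the 59 genes, 4 at TSSs and 2 elsewhere in the gene body, all of them parental-higher. The canonical promoter, chr12:48212816-48214072, had 110 and 53.5 tags (2.06-fold, 1.52 to 2.80), and its interval lay below that of *HDAC4*. An intron 1 region near an internal start, chr12:48205493-48206347, had 36 and 10.3 tags (3.51-fold, 1.85 to 7.04). Upstream of the canonical TSS, chr12:48215362-48215862 had 36 and 16.1 (2.23-fold, 1.28 to 3.98) and chr12:48225812-48226312, near a far upstream start, had 19 and 2.9 (6.48-fold, 2.15 to 26.2), the latter from 4 EIR reads. This far upstream region also lay within 1 kb of a TSS of the noncoding gene *LINC02354*. The fold was smallest at the canonical promoter, with intervals that overlapped. The canonical promoter also had the most tags, and regions with fewer tags need a larger fold to be listed. *HDAC9*, a gene of 915 kb, had no region at its canonical TSS. It had 28 and 8.8 tags at its far upstream start, chr7:18126266-18126766 (3.18-fold, 1.57 to 6.87), and 27 and 11.7 in intron 2, chr7:18548778-18549278 (2.30-fold, 1.20 to 4.57). *HDAC5* had a region in intron 3 only (17 and 5.1 tags, 3.31-fold). *HDAC6*, the tubulin deacetylase gene, and the class I genes *HDAC1*, *HDAC2*, *HDAC3* and *HDAC8* had none. Of these, HDAC1 and HDAC2 are the deacetylases of the NuRD, SIN3 and CoREST complexes, and HDAC3 is that of NCOR.

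*SIRT1*, the NAD-dependent class III deacetylase gene, had 25 and 9.5 tags in intron 1, chr10:69645608-69646108, 666 bp from a TSS (2.62-fold, 1.29 to 5.58). It lies on chromosome 10, where parental-higher regions were more dense than elsewhere (8.82 per Mb, compared with 3.31 per Mb over the other chromosomes without Y, among which the range was 1.49 to 6.74). EIR-higher regions were dense there as well, at 3.28 per Mb. *TET1* is on the same chromosome, and the part of this density in either result was not tested. The third gene there, *SUV39H2*, had no region.

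CHD proteins combine chromodomains with a SNF2-type ATPase. *CHD3*, whose product is an ATPase of the NuRD complex together with CHD4, had 49 tags in parental and 4.4 in EIR cells at chr17:7788231-7789033, from 6 EIR reads (11.14-fold, 4.77 to 31.8). Its HOMER *P* value, 7.35e-34, ranked 83 in the list. This region was not at the canonical start but 3876 to 3074 bp before it, 117 bp from the TSS of a longer transcript, and it also lay within 1 kb of a TSS of *NAA38*. *CHD6* had 65 and 18.3 tags over its canonical TSS, chr20:40246460-40247228 (3.55-fold, 2.21 to 5.87). *CHD7*, which encodes an enhancer-binding remodeler, had 112 and 43.2 tags from 251 bp to 1579 bp after the canonical TSS (2.59-fold, 1.87 to 3.61). Both were promoter-proximal. *CHD2* had 29 and 11.7 tags within intron 2, chr15:93448173-93448799, 470 bp from an internal TSS (2.47-fold, 1.30 to 4.87). *CHD9* had 3 regions, each at or near a separate start. The canonical start had 38 and 18.3 tags (2.07-fold), and a region in intron 1, 534 bp from a TSS, had 28 and 11.0 (2.55-fold). Further into intron 1, chr16:53164747-53166095 had 106 and 50.6 (2.10-fold, 1.53 to 2.88). The folds of the 3 regions were close to each other, with most tags at the third. *CHD1*, *CHD4* and *CHD8* had none.

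*INO80*, the ATPase gene of a complex that repositions nucleosomes carrying H2A.Z, had 32 and 11.0 tags at chr15:41407742-41408242, 88 bp from a TSS (2.91-fold, 1.53 to 5.78). No region was found at *SRCAP* or *EP400*, which encode the ATPases that deposit H2A.Z, or at the ISWI genes *SMARCA1* and *SMARCA5*.

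The 3 DNA methyltransferase genes each had a TSS region, in different directions. *DNMT3A*, a *de novo* methyltransferase gene, had 174 parental tags, the most in any single region of the 59 genes, and 24.2 EIR tags over chr2:25563450-25565616 (7.19-fold, 4.94 to 10.8). The 2166 bp region ran from 822 bp before to 1344 bp after the canonical TSS, and its *P* value of 3.19e-86 ranked 3 among the parental-higher regions. At *DNMT3B*, the second *de novo* enzyme gene, the canonical TSS region chr20:31349848-31350678 had 60 and 28.6 tags (2.10-fold, 1.38 to 3.23), an interval below that of *DNMT3A*. At *DNMT1*, which encodes the maintenance methyltransferase that copies methylation after replication, the order was reversed. The canonical TSS region chr19:10305285-10305785 had 5 tags in parental and 18.3 in EIR cells, from 25 EIR reads (3.67-fold higher in EIR, 1.38 to 12.3). Its HOMER *P* value was 5.42e-06. *DNMT1* was the only one of the 29 genes with a TSS region to be EIR-higher, and its 5 parental tags were the fewest of the TSS regions. This call was lost when the list was limited to *P* values of at most 1e-06 or when the EIR library was scaled 1.5 times lower.

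All 3 TET genes, which encode the dioxygenases that start removal of DNA methylation, had parental-higher regions. *TET3* had 132 and 36.7 tags over its canonical TSS, chr2:74211258-74212668 (3.60-fold, 2.58 to 5.09). *TET2* had 48 and 24.2 at chr4:106067312-106067812, over an alternative start (1.98-fold, 1.25 to 3.19). *TET1* had 42 and 22.0 at chr10:70321030-70321530, within intron 1 and 936 bp from its TSS (1.91-fold, 1.17 to 3.16). The interval of *TET3* overlapped with those of *TET2* and *TET1*. The 3 genes shared a direction, and the folds were not tested against each other. With the EIR library scaled 1.5 times higher, *TET3* kept its call, and *TET2* (1.32-fold) and *TET1* (1.27-fold) lost it.

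Of the 35 parental-higher regions, 23 covered an annotated TSS of the gene and 16 covered the canonical one. The lower limit of the interval was above 1 in all 35, which the calling of regions from the same tags fixed in advance, and above 2 in 11. These 11 were at *KMT2A*, *KMT2B*, *SETD1B*, *KDM4B*, *KDM7A*, *HDAC4*, *HDAC7*, *CHD3*, *CHD6*, *DNMT3A* and *TET3*. With the EIR library scaled 1.5 times higher, 15 of the 28 genes kept a parental-higher TSS region. The others were *KMT2C*, *KMT2D*, *SETD2*, *KDM3A*, *KDM3B*, *HDAC9*, *SIRT1*, *CHD2*, *CHD9*, *INO80*, *DNMT3B*, *TET1* and *TET2*. The regions of *SETD1B*, *DOT1L* and *CHD3* also lay within 1 kb of a TSS of another coding gene, to which they could also belong. Those of *SETD1B* and *DOT1L* covered the canonical TSS of the gene itself, and that of *CHD3* covered none of its starts. At the edge of the 1 kb window, the outermost regions counted were those of *TET1* (936 bp), *KDM2A* (963 bp) and *HDAC7* (967 bp). Just outside it lay regions 1152 bp from *KMT2A* (44 and 21.3 tags), 1794 bp from *CHD2* (109 and 55.0), 1813 bp from *SETD1B* (18 and 5.1) and 1906 bp from *KDM4B* (19 and 6.6).

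In the gene bodies, beyond 1 kb of the gene's own TSSs, 12 parental-higher regions were found at 10 genes (16.9%, compared with 9.22% of coding genes) and 5 EIR-higher regions at 4 genes (6.78%, compared with 3.13%). The 59 genes are long, with a median span of 84 kb against 27.2 kb. Per Mb of gene they had 1.69 parental-higher and 0.703 EIR-higher body regions, and all coding genes had 2.71 and 0.596. The EIR-higher share of body regions was 29.4% for these genes and 18.1% for all coding genes. The largest parental-higher folds were in intron 1 of *DNMT3B*, where chr20:31357601-31358101 had 23 and 5.1 tags (4.48-fold, 1.86 to 12.4) and chr20:31362941-31363631 had 24 and 5.9 (4.09-fold, 1.78 to 10.5). These exceeded the fold of the *DNMT3B* promoter, with overlapping intervals. Regions with few tags are listed only at a larger fold, so this order follows in part from the calling threshold. *HDAC7* had 20 and 6.6 tags in intron 1 (3.03-fold) and 33 and 13.2 between upstream starts (2.50-fold), the latter also within 1 kb of a TSS of *LINC02354*. *HDAC9* had 24 and 6.6 94665 bp from the nearest of its starts (3.64-fold). Other single regions were in the first introns of *KMT2A*, *KDM4B*, *KDM4C*, *DNMT3A* and *TET1*, intron 2 of *CHD2* and intron 3 of *HDAC5*. The 12 regions ranged from 17 to 39 parental tags and from 1.97- to 4.48-fold.

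In all, 4 genes (6.78%) had regions in both directions, compared with 2.05% of coding genes, whose spans are shorter as given above. At *SETD1B*, 4 parental and 20.5 EIR tags, from 28 EIR reads, lay over exon 6 and intron 6, chr12:122248335-122248989 (5.13-fold higher in EIR, 1.80 to 20.1), 5691 bp from the nearest TSS of the gene. Its promoter had 3.20-fold more in parental cells. At *KDM4B*, intron 1 had 5 and 16.9 tags (3.37-fold higher in EIR) at chr19:4978499-4978999, and intron 11 had 4 and 16.9 (4.21-fold higher in EIR) at chr19:5122849-5123349. A second intron 1 region of *KDM4B*, nearer the start at chr19:4971049-4971549, was parental-higher with 19 and 6.6 tags (2.88-fold), as was the promoter. At *KMT2C*, intron 1 had 5 and 18.3 tags (3.67-fold higher in EIR) at chr7:152110966-152111466. In intron 3 of *CHD7* the values were 5 and 16.9 (3.37-fold higher in EIR). In each of the 4 genes, the EIR-higher region lay downstream of a parental-higher promoter region. This order follows largely from picking genes with both directions, since a gene body lies downstream of its start. With the EIR library scaled 1.5 times lower, only the *SETD1B* region of these 5 EIR-higher ones kept its call, and those of *KDM4B*, *KMT2C* and *CHD7* lost it. They held 23 to 28 EIR reads each, and 1 of the 5, that of *SETD1B*, had a HOMER *P* value below 1e-06.

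**Figure D4:**
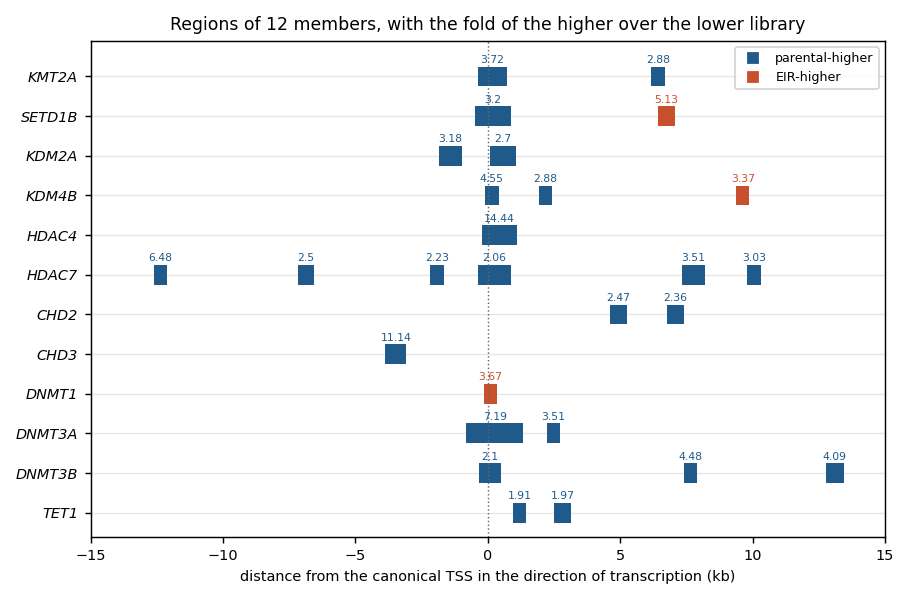
Position of the regions of 12 of the genes within 15 kb of the canonical TSS (dotted line), in the direction of transcription, with the fold of the higher over the lower library above each bar. Most parental-higher regions of KMT2A, SETD1B, KDM4B, HDAC4 and DNMT3A are at the start, the HDAC7 regions are spread on both sides of it, and EIR-higher regions are seen at DNMT1 and downstream in SETD1B and KDM4B.

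The TSS regions were rich in GC. Median GC content was 72.1% (range 38 to 82.6%) in the 35 parental-higher TSS regions, and the median observed over expected CpG ratio was 0.86. The 4668 regions at all coding TSSs had 70.9% and 0.85, and the 383 EIR-higher regions at coding TSSs had 60.2% and 0.47. The *DNMT1* region, at 71.7% and 0.92, was closer to the parental-higher set in this respect. In the bodies of the enzyme genes the medians were 50.5% and 0.19 for the 12 parental-higher and 56.1% and 0.39 for the 5 EIR-higher regions. With a CpG ratio of 0.5 as the limit, 29 TSS regions at 27 genes were CpG-rich, with a median of 65 parental tags (23 to 174) and a median fold of 2.7. The other 6, at *HDAC7* (3 regions), *HDAC9*, *CHD2* and *CHD9*, were CpG-poor, with a median of 28.5 tags (19 to 36) and a fold of 2.51. The CpG-poor regions thus had few tags and all lay near internal or alternative starts. Only that of *HDAC9* covered a start, so the CpG content of the other starts was not measured here.

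Regions with a large fold were GC-rich over the whole set of coding TSSs, not only at these genes. Those with at least a 5-fold difference had a median GC content of 76.1% and 30 parental tags, and the remainder had 70.8% and 49 tags. At a GC content of at least 74%, 6.78% of regions reached 5-fold, compared with 1.96% below it. Among the enzyme genes, *HDAC4* (74.4%), *CHD3* (79.8%), *DNMT3A* (81.2%) and *KMT2B* (82.6%) were above this limit and the far upstream *HDAC7* region (59.9%) was below it. The part that GC content had in these folds was not tested.

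**Figure D5:**
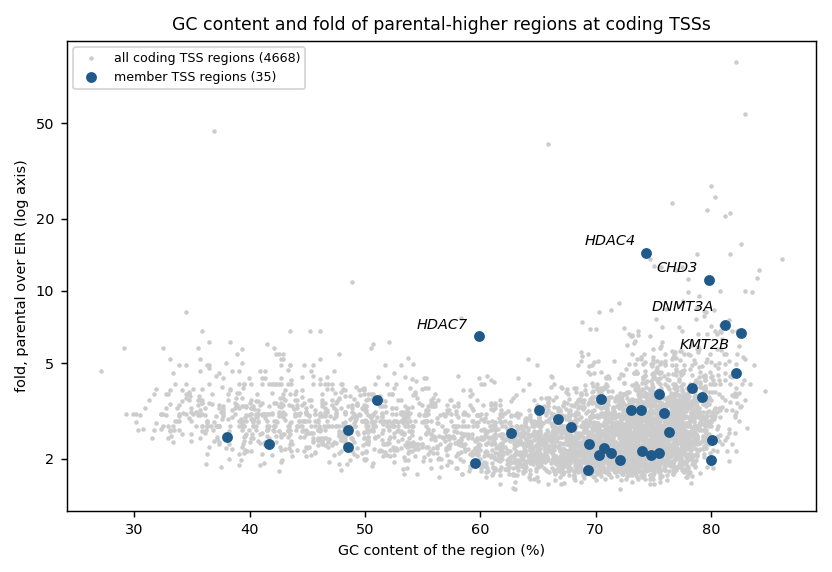
Fold of parental over EIR tags (log axis) against the GC content of the region, for the 35 parental-higher TSS regions of the enzyme genes (large points) and all 4668 at coding TSSs (small points). HDAC4, CHD3, DNMT3A and KMT2B lie at GC contents from 74.4% to 82.6%, where most of the largest folds in the whole set also lie.

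Within the central 300 bases, a GC box (GGGCGG on either strand) was found in 28 of the 35 TSS regions (80%) and 70.1% of those at all coding TSSs. The E-box CACGTG was found in 5 (14.3%, against 4.16%), at *CHD9* in 2 regions and at *INO80*, *TET1* and *TET3*. The AP-1 motif TGANTCA was found in 3 (8.57%, against 3.45%), at *KDM2A*, *KDM3A* and *CHD9*. The ETS motif CGGAAG was found in 2 (5.71%, against 15.1%), at *SETD2* and *DNMT3A*. The GC box, the E-box and the ETS motif each contain a CpG, and the part of CpG content in these shares was not tested. A match is a run of letters and not evidence of a bound factor. None of the 53 regions had another stretch of at least 75 bases at 98% identity in the genome.

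For the 28 genes without a region, the nearest region of either list lay between 1418 bp (*NSD3*) and 1385 kb (*HDAC2*) from the gene, with a median of 39 kb. It was within 10 kb for 5 genes and beyond 100 kb for another 5. These distances were not set beside those of other coding genes. All 5 genes on chromosome X, *SUV39H1*, *KDM5C*, *HDAC6*, *HDAC8* and *SMARCA1*, were among the 28, and X had the lowest density of parental-higher regions of the chromosomes other than Y (1.49 per Mb). All 4 on chromosome 2, *HDAC4*, *DNMT3A*, *TET3* and *KDM3A*, had a parental-higher TSS region, at a density of 3.40 per Mb on that chromosome. The values do not say whether SMARCA4 is bound equally, or not at all, at the 28.

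Other genes of the same pathways were counted in the same way. Of 87 paralogs and complex partners, 43 (49.4%) had a parental-higher region within 1 kb of a TSS, beside 23.2% of all coding genes, with a median fold of 2.55 over these regions, and 1, *MTA1*, had an EIR-higher one. By list, these were 15 of 20 NuRD, SIN3, CoREST and NCOR partners (75%), 5 of 10 COMPASS partners, 4 of 8 DNA methylation partners, 9 of 23 ISWI, INO80, SRCAP and EP400 partners (39.1%) and 10 of 26 paralogs (38.5%). Shares were not tested between lists. No listed region was found at *HDAC1*, *HDAC2* or *HDAC3*, the deacetylase genes of the first list's complexes. The largest folds were at *MBD2* (48 and 10.3 tags, 4.68-fold), *KMT5A* (104 and 23.5, 4.43-fold) and *NCOA6* (64 and 14.7, 4.37-fold). *MBD3* (36 and 8.8 tags) and *RUVBL1* (24 and 5.9) followed, both at 4.09-fold. *MBD2* and *MBD3* are NuRD subunit genes, whereas the NuRD subunit genes *MTA2*, *GATAD2B* and *RBBP4* had no region at a TSS. Of the NuRD ATPase genes, *CHD3* had the region described above, also within 1 kb of a TSS of *NAA38*, and *CHD4* had none. *RCOR1*, a CoREST subunit gene, had the most tags, 200 and 90.9 (2.20-fold). At *MTA1*, a NuRD subunit gene, the promoter region had 83 and 27.1 tags (3.06-fold higher in parental) and an internal start, chr14:105931343-105931843, had 5 and 16.1 (3.23-fold higher in EIR). *UHRF1*, whose product brings DNMT1 to replicated DNA, had 123 and 67.4 tags (1.82-fold higher in parental), opposite in direction to *DNMT1*.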

How the data were processed

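FLAG-SMARCA4 ChIP-seq of 1 parental and 1 EIR library was used. Per the labels and the study's methods, the authors aligned reads with Bowtie 0.12.9 to hg19 and called regions with HOMER (histone style, FDR of 5%), each library in turn being the control. The parental-higher list, as deposited, holds the tag count per region without normalization. The signal of the EIR library was scaled by the authors to the parental total, and a signal per 10000000 tags gives the totals. The deposited fold is the ratio of the 2 libraries, with 0.5 tag where the control had none, and the deposited p-value is HOMER's Poisson p-value. EIR tags were recovered as whole multiples of 0.733 (100% of distinct values of at least 5 were whole within 0.051).

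TSSs, exons and gene spans were from GENCODE release 44 mapped to GRCh37, which shares hg19 coordinates. Distances were from the nearest region edge and coordinates are as listed. The 95% interval of a fold was the exact Clopper-Pearson one for how the tags split between the libraries, and covers counting error only. An exact binomial test with Benjamini-Hochberg adjustment over all 12896 regions was an alternative, with other windows, TSS sets, thresholds, scalings and a pseudocount. With 1 library per condition no spread between cultures or clones could be estimated.

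The genes, gene lists and tests were chosen with earlier results of these data known. Each gene with a TSS region was named with its region of smallest HOMER p-value, together with all EIR-higher regions, genes of both directions and genes with none. For gene bodies, the 5 genes with the most regions and folds of at least 5 were to be named; ties made all of them eligible. Sequences shown were the TSS-covering region with the highest fold, the one with most tags and the EIR-higher one. GC content, CpG, motif, copy and chromosome counts were added after the data were seen. Near-identical copies were searched with blastn 2.17.0. Other tools were scipy 1.17.1, pandas 2.3.3, numpy 2.4.6, samtools 1.23.1 and matplotlib 3.10.9 under Python 3.11.15, and the calculations were tested on simulated data.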

Additional observations from a re-analysis of the deposited data

How the results depend on the processing

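The 28 genes with a parental-higher TSS region became 6 at a minimum fold of 4 and 15 with the EIR library scaled 1.5 times higher. Across other windows, TSS sets, a fold of 2 and HOMER p-values of at most 1e-06, the number stayed within 1.5 times of 28. It was also 28 under the exact binomial test, which called every listed region. The lower EIR scaling raises every parental-higher fold, so its count of 28 was fixed in advance. The 1 EIR-higher gene became 0 at a fold of 4, 0 at a p-value of at most 1e-06 and 0 with EIR scaled 1.5 times lower. The 12 parental-higher body regions became 2 at a fold of 4, 3 at 1e-06, 2 with EIR scaled higher and 5 beyond 5 kb of a TSS. The 5 EIR-higher body regions became 2, 1 and, with EIR scaled lower, 1. The median fold of 2.62 became 1.75 with EIR scaled 1.5 times higher and 3.93 with it 1.5 times lower, which is the scaling itself. Alternatives remove regions and cannot add uncalled ones. Calls of single regions under the scalings and the binomial test were added after the data were seen: of the 53 regions, 28 were lost with EIR scaled higher, 5 with it scaled lower and 0 under the binomial test, and none changed direction. The binomial test called all 12896 regions, which had been listed for a difference in the same tags, so it is no separate check. No paired analysis was possible because each condition has 1 library, and for the same reason no library could be left out.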

Other observations

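Within 20 kb on either side of the genes, 32 further regions were listed around 22 of them, 29 parental-higher and 3 EIR-higher. Of these, 17 lay within 1 kb of a TSS of another coding gene, and 13 parental-higher ones did not. The flanks of other coding genes were not counted for comparison. Upstream of genes without a region of their own, *KMT2E* had 18 parental and 3.7 EIR tags at a distance of 4005 bp (4.91-fold), and *CHD1* had 17 and 3.7 at 5521 bp (4.64-fold). *HDAC3* had 24 and 5.9 tags 11064 bp downstream (4.09-fold). Upstream of *TET3*, a region at 8240 bp had 18 and 3.7 tags (4.91-fold), compared with 3.60-fold at its promoter. A region with so few tags is listed only at a larger fold than one with many. Beside *SETD1B*, a region at 2914 bp with 114 and 51.3 tags (2.22-fold) lay at the promoter of *RHOF*. The 3 EIR-higher flanking regions were near *EHMT1* (7 parental and 21.3 EIR tags), *EHMT2* (9 and 26.4) and *KDM5B* (5 and 17.6), which had no parental-higher region at a TSS or in the gene body. That of *EHMT2* lay within 1 kb of a TSS of *NEU1*. *EHMT1* also had a nearer flanking region, at 12511 bp, that was parental-higher with 76 and 41.0 tags (1.85-fold). Around *SRCAP*, the nearest region lay 38.2 kb away with 62 and 11.7 tags (5.29-fold), and around *CHD4* the nearest lay 29.1 kb away and was EIR-higher, with 2 and 16.1 tags (8.06-fold). None of these regions is assigned to the named gene by the 1 kb window.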
